A study of Mus musculus with 90 samples.

Results

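The cholesterol and fatty acid metabolism genes described here are a set of 34 genes named by symbol, all of which were found among the 23420 genes of the deposited count table. They comprise 7 early and 11 late enzymes of sterol synthesis, 5 regulators of the sterol regulatory element binding proteins (SREBPs), 6 genes of liver X receptors (LXRs), cholesterol efflux and transport, and 5 genes of fatty acid synthesis. Sc4mol is the older name of Msmo1 and is used as the table has it. No threshold on a measured value chose the members.

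Cells make cholesterol from acetyl-CoA through mevalonate, farnesyl diphosphate and squalene, and most enzymes of this route are transcribed under SREBP2. When membrane sterol is low, the escort protein SCAP carries SREBPs from the endoplasmic reticulum to the Golgi for cleavage, and INSIG proteins hold them back when sterol is plentiful. Oxysterols formed when cholesterol is abundant activate LXRs, which induce the efflux pumps ABCA1 and ABCG1 and the ubiquitin ligase IDOL, encoded by Mylip. In T cells, sterol synthesis is known to rise on activation while LXR targets are known to fall.

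The series holds RNA sequencing of 90 libraries of mouse T cells in 30 groups. The Treg series has 30 libraries from mice labelled WT, with IL10-expressing, Ebi3-expressing and double-negative (DN) regulatory T cells (Tregs) from tumours (TIL), non-draining lymph nodes (ndLN) and naive mice, and effector T cells (Teff) from naive mice, at 3 libraries a group. Ebi3 encodes a subunit of the cytokine IL-35. The CD8 series has 60 libraries of CD8 T cells from mice labelled DKO, Ebi3L, Il10 or yfp, and the design text describes deletions of IL-10, of IL-35 or of both that are made in Tregs, so the CD8 cells are those of the hosts.

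Each CD8 genotype was sorted into 5 populations. NDLN cells came from a non-draining lymph node. Among tumour cells, NEG cells lacked both PD-1 and TIM-3, INT cells had intermediate PD-1, SP cells had high PD-1, and DP cells had high PD-1 together with TIM-3, which INT and SP cells lacked. A population has 4 DKO, 3 Ebi3L, 2 Il10 and 3 yfp libraries. The labels do not say whether the libraries of a group are from different mice, and the spread that p-values rest on may be partly technical. Cells were sorted in 2 rounds, and cDNA was made with SMART-Seq v4 for Tregs and v3 for CD8 cells, so levels are compared within a series only.

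Library totals ran from 9.73 to 20.2 M counts in the Treg series and from 19.2 to 47.7 M in the CD8 series. A gene at 0 may lie below 0.148 to 0.308 CPM, read counts scaled to the library total, in the Treg series and 0.0629 to 0.156 CPM in the CD8 series, the level of 3 counts, which covers counting error only. Levels below are CPM, changes are log2 fold changes ± standard error (SE) from edgeR, and a gene rose or fell where its Benjamini-Hochberg adjusted p over all genes tested was under 0.05. Foxp3, the transcription factor of Tregs, lay between 29.1 and 157 CPM in the Treg libraries, between 15.9 and 29.7 in Teff and at 3.08 CPM or lower in CD8 libraries. Cd8a lay between 694 and 1502 CPM in CD8 libraries. 4 libraries stood apart. 1 ndLN Ebi3 library had 207 CPM of 11 macrophage genes, 1 SP DKO library had 94.2 CPM, and NEG yfp replicate 2 lay near the NDLN cells in several members. NEG Il10 replicate 1 had 10400 genes with a count, against 12099 to 12575 in the other NEG libraries.

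Promoter sequence was read for the members because many of them moved together. RefSeq windows of GRCm38.p6, from 250 bases before to 50 after a gene's start, were held for 27 of the 34 members. Both strands were searched. The NF-Y box CCAAT stood in 61.1% of the 36 member windows, against 37.4% of all 32851 windows, and in 14 of the 15 sterol synthesis genes with a window. The Sp1 box GGGCGG stood in 72.2% of member windows, against 35.7% of all windows. A sterol regulatory element, TCACNCCAC, was matched in Hmgcs1 alone, 137 bases before its start, or 2.78% of member windows, against 1.24% of all windows. Other forms of this element were not searched. Fdps, Fdft1, Sqle, Abcg1, Stard4, Scd1 and Scd2 had no window and could not be read.

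Sequences of 250 bases before the start are shown for 2 genes that rose in tumour Tregs and in DP cells, Hmgcs1 (chr13:119690101-119690350, plus strand) and Sc4mol (chr8:64733579-64733828, minus strand). Capitals mark the sterol regulatory element and NF-Y boxes on either strand.
Hmgcs1: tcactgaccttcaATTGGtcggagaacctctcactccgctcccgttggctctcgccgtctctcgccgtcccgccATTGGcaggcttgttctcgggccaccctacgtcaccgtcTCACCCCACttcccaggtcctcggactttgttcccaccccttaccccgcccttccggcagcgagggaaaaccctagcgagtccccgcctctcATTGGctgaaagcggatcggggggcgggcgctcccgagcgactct
Sc4mol: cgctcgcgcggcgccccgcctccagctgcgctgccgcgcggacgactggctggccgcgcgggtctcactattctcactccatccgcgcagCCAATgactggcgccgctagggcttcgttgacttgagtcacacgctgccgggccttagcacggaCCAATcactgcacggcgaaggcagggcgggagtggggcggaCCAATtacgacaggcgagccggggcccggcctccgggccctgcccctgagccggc

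LXRs bind pairs of half-sites spaced by 4 bases. The strict pair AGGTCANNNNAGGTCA was matched in 0 of the 36 member windows and in 0.0152% of all windows. A looser form, NGGTNANNNNNGGTCA, was matched in Abca1, Srebf1 and Fasn, which is 8.33% of the member windows, against 0.207% of all windows. This looser form was not specified in advance, and its share was not tested. Abca1 (chr4:53159896-53160145, minus strand) is shown because it was the member with the largest fall in Tregs and DP cells, and its capitals mark the looser pair on the opposite strand, 67 bases before the start. The same letters stood 225 bases before the start of Fasn. A match is a description of letters and not of a bound site.
Abca1: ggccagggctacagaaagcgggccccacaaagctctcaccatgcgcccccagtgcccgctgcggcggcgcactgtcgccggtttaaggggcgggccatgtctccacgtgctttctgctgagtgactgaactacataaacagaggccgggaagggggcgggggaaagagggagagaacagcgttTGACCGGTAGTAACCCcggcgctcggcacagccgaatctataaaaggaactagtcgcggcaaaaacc

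In tumour Tregs set against lymph node Tregs, many sterol synthesis genes were higher in each of the 3 subsets. The LXR targets Abca1, Abcg1 and Mylip were lower, while fatty acid synthesis genes passed no test. Of the 34 members, 15 rose and 3 fell in IL10 Tregs, where 9.32% of all genes tested were called, 5.56% higher and 3.77% lower. The counts were also 15 and 3 in Ebi3 Tregs, with 10.3% of all genes called, 6.24% higher and 4.01% lower. In DN Tregs they were again 15 and 3, with 23.4% called, 12.9% higher and 10.5% lower. The calls shared by the 3 subsets were 14 genes higher and 3 lower, and the share of all genes so called was not computed. The median change over members was 0.61, 0.81 and 0.55 in IL10, Ebi3 and DN Tregs, beside -0.02, -0.04 and 0.01 over all genes tested. In bulk samples, fewer cells of a type and less RNA per cell cannot be told apart.

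**Figure D1:**
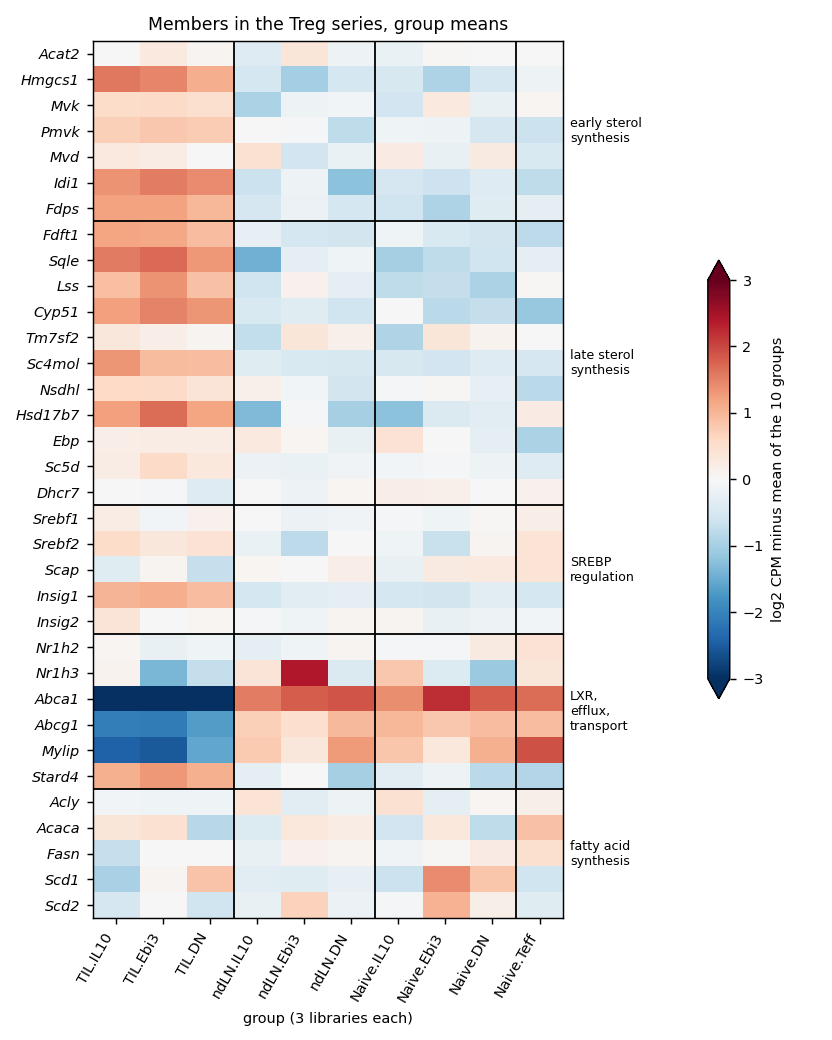
Group means of every member in the Treg series as log2 CPM minus the mean of the 10 groups, with members in rows by role and groups of 3 libraries in columns. Sterol synthesis rows are mostly red in the 3 tumour columns, the Abca1, Abcg1 and Mylip rows are blue there, and the fatty acid synthesis rows hold no call between tumour and node.

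Among the 7 early enzymes, which lead from acetyl-CoA to farnesyl diphosphate, 5 rose in tumour IL10 Tregs, 5 in tumour Ebi3 Tregs and 4 in tumour DN Tregs. Their median changes were 1.61, 1.04 and 1.66. Hmgcs1, the synthase of HMG-CoA on chromosome 13, had 153, 191 and 172 CPM in the 3 tumour IL10 libraries, against 29.4, 64.6 and 33.4 in lymph node IL10 libraries. It had 117, 205 and 167 CPM in tumour Ebi3 Tregs and 16.9, 55.3 and 24.2 in lymph node Ebi3 Tregs, and 71.9, 167 and 148 in tumour DN Tregs and 25.5, 46.9 and 52.0 in lymph node DN Tregs. No tumour library overlapped its lymph node group. Replicate numbers are batches in this series, and within each of the 3 batches Hmgcs1 was higher in the tumour library of every subset. The changes were 2.28 ± 0.24 in IL10 Tregs (edgeR, adjusted p = 1.45e-07), 2.60 ± 0.25 in Ebi3 Tregs (1.25e-08) and 1.73 ± 0.24 in DN Tregs (4.17e-06).

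Idi1, the isomerase that makes the prenyl building blocks interchangeable, had 18.3, 16.4 and 27.4 CPM in tumour IL10 Tregs, against 4.57, 4.93 and 5.53 in lymph node IL10 Tregs. The values were 22.7, 18.6 and 28.7 in tumour and 6.48, 6.20 and 8.80 in lymph node Ebi3 Tregs, and 17.5, 17.1 and 31.1 in tumour and 3.57, 1.84 and 5.52 in lymph node DN Tregs. Tumour and lymph node groups did not overlap in any subset, and Idi1 rose by 2.16 ± 0.36, 1.86 ± 0.36 and 2.75 ± 0.37 in IL10, Ebi3 and DN Tregs. Fdps, which makes farnesyl diphosphate, rose by 1.89 ± 0.21, 1.56 ± 0.21 and 1.68 ± 0.21. Pmvk, which phosphorylates mevalonate phosphate, rose by 0.89 ± 0.18, 1.04 ± 0.18 and 1.66 ± 0.18. The remaining early enzymes passed in 1 subset at most. Mvk, mevalonate kinase, rose in IL10 Tregs by 1.61 ± 0.35 and stood at 0.81 ± 0.35 in Ebi3 and 0.72 ± 0.35 in DN Tregs without passing. Mvd, which decarboxylates mevalonate diphosphate, rose in Ebi3 Tregs by 0.97 ± 0.24. Acat2, the cytosolic thiolase that starts the route, passed in 0 of the 3 subsets, with changes of 0.52, 0.07 and 0.37.

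Of the 11 late enzymes, which run from squalene to cholesterol, 7 rose in IL10, 7 in Ebi3 and 8 in DN Tregs from tumours, with median changes of 1.64, 1.33 and 1.08. Sqle, squalene epoxidase and a rate-limiting enzyme of the late route, had 114, 152 and 101 CPM in tumour IL10 Tregs, against 7.93, 27.0 and 16.2 in lymph node IL10 Tregs. It had 100.3, 189 and 124 CPM in tumour and 17.1, 55.4 and 39.3 in lymph node Ebi3 Tregs, and 63.7, 122 and 135 in tumour and 23.2, 43.8 and 51.4 in lymph node DN Tregs. Tumour and lymph node libraries did not overlap in any subset. Sqle rose by 3.13 ± 0.36 in IL10 Tregs (edgeR, adjusted p = 5.61e-07), 2.11 ± 0.34 in Ebi3 Tregs (7.20e-05) and 1.56 ± 0.34 in DN Tregs (0.00109).

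Cyp51, the lanosterol demethylase, had 163, 264 and 217 CPM in tumour IL10 Tregs, against 53.6, 75.2 and 69.1 in lymph node IL10 Tregs, and rose by 1.86 ± 0.22. Its changes were 1.99 ± 0.22 in Ebi3 and 2.04 ± 0.22 in DN Tregs, all of which passed. Sc4mol, the methylsterol monooxygenase, rose by 1.87 ± 0.19, 1.58 ± 0.19 and 1.53 ± 0.19 in IL10, Ebi3 and DN Tregs. Nsdhl, a dehydrogenase that acts after it, rose by 0.64 ± 0.19, 0.82 ± 0.19 and 1.08 ± 0.19. Sc5d, a sterol desaturase, rose by 0.58 ± 0.12, 0.95 ± 0.12 and 0.55 ± 0.12, and its tumour and lymph node DN libraries overlapped.

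Hsd17b7, a ketosteroid reductase of the demethylation steps, had the widest SE among the sterol synthesis genes that passed. It had 35.0, 37.8 and 31.9 CPM in tumour IL10 Tregs and 11.4, 1.80 and 9.93 in lymph node IL10 Tregs, 38.1, 57.3 and 49.0 in tumour and 8.55, 21.5 and 15.7 in lymph node Ebi3 Tregs, and 41.7, 52.0 and 17.3 in tumour and 5.56, 15.5 and 4.68 in lymph node DN Tregs. The groups did not overlap, and the changes were 2.26 ± 0.56, 1.84 ± 0.55 and 2.25 ± 0.56. Ebp, a sterol isomerase, rose in DN Tregs by 0.57 ± 0.13 and stood at 0.09 in IL10 and 0.33 in Ebi3 Tregs. Lss, lanosterol synthase, Tm7sf2, a sterol reductase, and Dhcr7, the reductase of the last step of 1 branch, passed in 0 of the 3 subsets. Lss stood at 1.74 ± 0.59, 1.33 ± 0.58 and 0.99 ± 0.58, and Dhcr7 at 0.15 ± 0.22, 0.29 ± 0.22 and -0.30 ± 0.22.

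Fdft1, squalene synthase, rose by 1.64 ± 0.19, 1.83 ± 0.19 and 1.60 ± 0.19 in IL10, Ebi3 and DN Tregs. In the GENCODE annotation of GRCm38, 18.3% of its 4227 exon bases lie over exons of Ctsb on the opposite strand, and the strand setting of the counting is not given in the sources used here. Ctsb, a lysosomal protease gene, also rose, by 0.31 ± 0.08, 0.78 ± 0.08 and 1.11 ± 0.08, so the value of Fdft1 is uncertain. Cyp51 shares 3.76% of its exon bases with Akap9, which passed in 0 of the 3 subsets. Fdps shares 26.7% with a predicted gene on the same strand, Gm43738, and Tm7sf2 12.1% with Vps51.

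**Figure D2:**
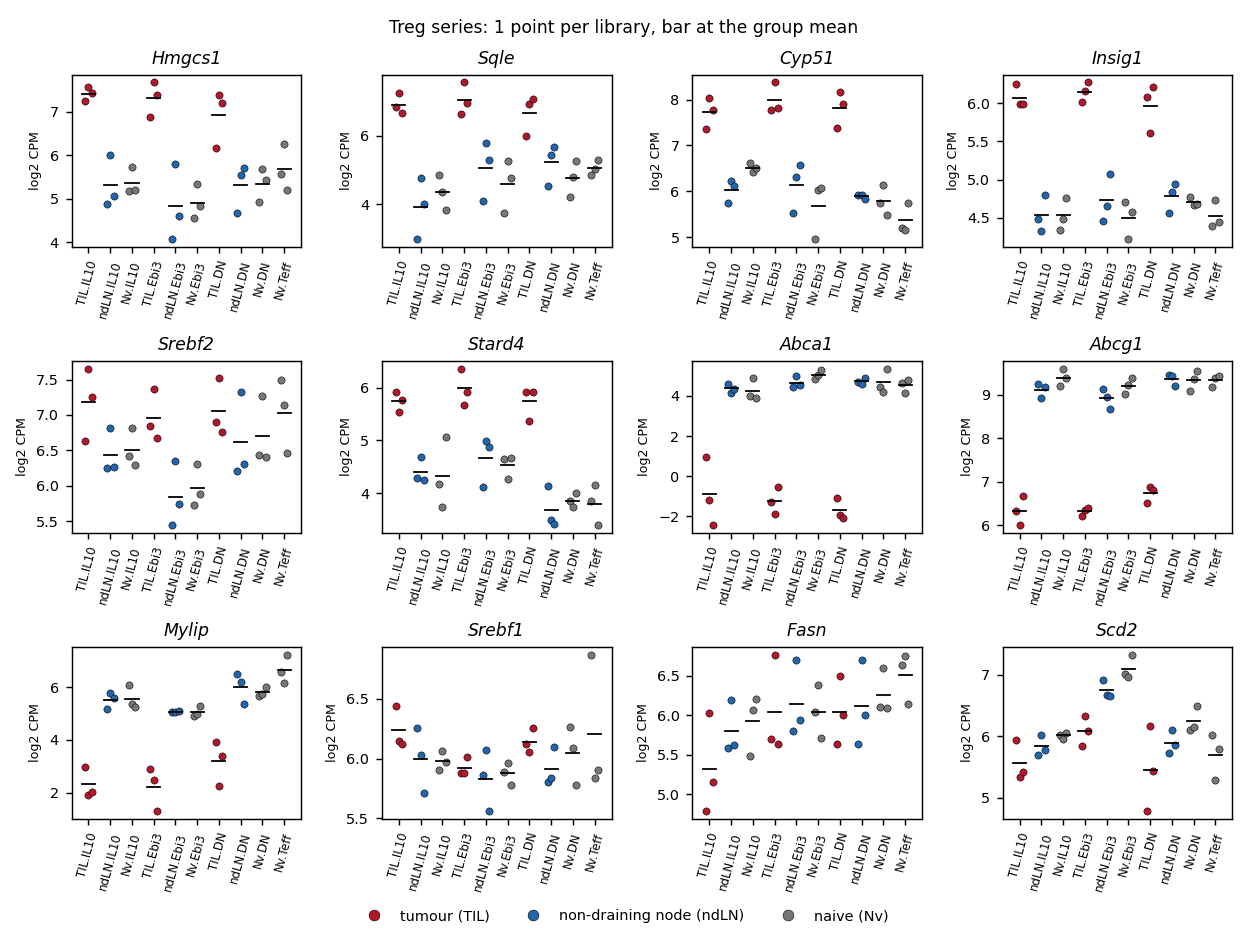
Levels of 12 members in the Treg series, 1 point per library as log2 CPM with a prior of 0.5 counts, and a bar at each group mean. Within each subset, tumour libraries lie above lymph node libraries for Hmgcs1, Sqle, Cyp51, Insig1 and Stard4 and below them for Abca1, Abcg1 and Mylip, while Srebf1 and Fasn overlap between sites.

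Of the SREBP regulators, Srebf2 and Insig1 rose in each subset, and Srebf1, Scap and Insig2 passed in none. Insig1, an SREBP target that retains SCAP, had 76.0, 63.5 and 63.6 CPM in tumour IL10 Tregs, against 22.4, 19.96 and 27.7 in lymph node IL10 Tregs. It had 64.6, 71.6 and 77.5 in tumour and 22.0, 25.1 and 33.6 in lymph node Ebi3 Tregs, and 67.8, 49.0 and 74.3 in tumour and 23.5, 28.5 and 30.8 in lymph node DN Tregs. The groups did not overlap, and Insig1 rose by 1.72 ± 0.20, 1.57 ± 0.20 and 1.32 ± 0.20. Srebf2, which encodes SREBP2, had 98.9, 202 and 152 CPM in tumour and 75.9, 113 and 76.5 in lymph node IL10 Tregs, 115, 165 and 103 in tumour and 43.5, 81.2 and 53.2 in lymph node Ebi3 Tregs, and 119.8, 183 and 109 in tumour and 74.2, 159.9 and 79.2 in lymph node DN Tregs. Libraries overlapped in IL10 and in DN Tregs, where replicate 2 was the highest at both sites. Its changes of 0.94 ± 0.20, 1.27 ± 0.20 and 0.56 ± 0.20 passed, with an adjusted p of 0.0410 in DN Tregs.

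Srebf1, which encodes SREBP1, had 86.8, 70.8 and 69.7 CPM in tumour and 76.5, 65.3 and 52.5 in lymph node IL10 Tregs, 58.8, 58.7 and 64.8 in tumour and 58.2, 67.4 and 47.1 in lymph node Ebi3 Tregs, and 69.5, 66.3 and 76.3 in tumour and 55.8, 57.2 and 68.4 in lymph node DN Tregs. The groups overlapped in every subset, and its changes were 0.40 ± 0.20, 0.25 ± 0.20 and 0.35 ± 0.20. Scap stood at -0.31 ± 0.33, 0.23 ± 0.33 and -0.72 ± 0.34, and Insig2, the second SCAP-retaining protein, at 0.56 ± 0.22, 0.32 ± 0.22 and 0.09 ± 0.22.

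The 3 members that fell were LXR targets. Abca1, the pump that loads cholesterol onto apolipoproteins (chr4:53030787-53159895, minus strand), had 1.90, 0.399 and 0.159 CPM in tumour IL10 Tregs, against 24.5, 17.8 and 20.4 in lymph node IL10 Tregs. It had 0.379, 0.231 and 0.656 CPM in tumour and 22.0, 31.5 and 23.2 in lymph node Ebi3 Tregs, and 0.449, 0.223 and 0.213 in tumour and 26.2, 24.4 and 29.8 in lymph node DN Tregs. The groups were far apart in every subset, and tumour libraries lay at 0.656 CPM or lower apart from 1 IL10 library. Abca1 fell by 4.47 ± 0.54 in IL10 Tregs (edgeR, adjusted p = 1.29e-06), fell by 5.72 ± 0.58 in Ebi3 Tregs (5.68e-08) and fell by 6.35 ± 0.61 in DN Tregs (1.30e-08). Tumour DN replicate 2 and IL10 replicate 3 were at the level of 3 counts (0.223 and 0.159 CPM), and other tumour values lay near it. The sizes of these falls, and their differences between subsets, are therefore imprecise.

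Abcg1, the pump that passes cholesterol to lipoprotein particles (chr17:31057675-31117988, plus strand), had 79.6, 63.9 and 101 CPM in tumour and 607, 486 and 577 in lymph node IL10 Tregs. The values were 73.5, 81.9 and 83.7 in tumour and 562, 498 and 407 in lymph node Ebi3 Tregs, and 90.9, 118 and 112 in tumour and 709, 691 and 593 in lymph node DN Tregs. Groups did not overlap, and the changes were -2.60 ± 0.16, -2.46 ± 0.16 and -2.52 ± 0.16, with the smallest adjusted p of any member in each subset. Mylip, the ligase that marks lipoprotein receptors for degradation, had 7.80, 3.75 and 4.08 CPM in tumour and 36.3, 55.4 and 48.9 in lymph node IL10 Tregs, and 7.47, 5.46 and 2.42 in tumour and 33.0, 33.8 and 34.1 in lymph node Ebi3 Tregs. In DN Tregs it had 15.3, 4.68 and 10.6 CPM in tumours and 90.8, 74.0 and 41.4 in lymph nodes. Its changes of -3.07 ± 0.39, -2.60 ± 0.39 and -2.66 ± 0.38 all passed, without overlap.

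The LXR genes themselves passed in 0 of the 3 subsets. Nr1h2, which encodes LXR beta, stood at 0.48 ± 0.16, 0.09 ± 0.16 and -0.12 ± 0.16, and had 65.1, 97.7 and 58.5 CPM in tumour and 64.2, 68.4 and 43.8 in lymph node IL10 Tregs. Nr1h3, which encodes LXR alpha, was at most 4.04 CPM in any Treg-series library. Stard4, a sterol transfer protein and SREBP target grouped here with transport, was the member of this group that rose. It had 60.4, 46.6 and 54.3 CPM in tumour and 19.4, 25.6 and 19.0 in lymph node IL10 Tregs, 82.1, 50.7 and 60.6 in tumour and 17.4, 31.9 and 29.5 in lymph node Ebi3 Tregs, and 60.3, 41.4 and 60.6 in tumour and 17.7, 11.2 and 10.7 in lymph node DN Tregs. The groups did not overlap, and its changes were 1.49 ± 0.31, 1.43 ± 0.31 and 2.15 ± 0.31.

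None of the 5 fatty acid synthesis genes passed between tumour and lymph node in any subset with edgeR. At an unadjusted p under 0.05 the counts were 0 in IL10, 2 in Ebi3 and 0 in DN Tregs, and the medians were -0.29, 0.27 and 0.05. Fasn, fatty acid synthase, had 27.6, 65.1 and 35.5 CPM in tumour and 47.8, 73.3 and 49.0 in lymph node IL10 Tregs, 52.0, 109 and 49.7 in tumour and 55.4, 103 and 61.4 in lymph node Ebi3 Tregs, and 49.5, 90.2 and 63.8 in tumour and 49.7, 104 and 63.9 in lymph node DN Tregs. These overlapped in every subset, with changes of -0.29 ± 0.20, 0.06 ± 0.20 and 0.05 ± 0.20. Scd2, a stearoyl-CoA desaturase, had 57.2, 80.8 and 67.8 CPM in tumour and 121, 102 and 101 in lymph node Ebi3 Tregs without overlap, but its change of -0.50 ± 0.24 did not pass. In tumour IL10 Tregs Scd2 had 61.6, 40.3 and 42.8 CPM, against 51.8, 65.1 and 54.9 in lymph node IL10 Tregs, and in tumour DN Tregs 27.4, 71.5 and 43.2, against 53.0, 68.4 and 58.0 in lymph node DN Tregs.

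Acly, which makes cytosolic acetyl-CoA for both routes, stood at -0.31 ± 0.16, 0.38 ± 0.16 and 0.13 ± 0.16 in IL10, Ebi3 and DN Tregs. Acaca, acetyl-CoA carboxylase, stood at 1.12 ± 0.63, 0.27 ± 0.61 and -0.69 ± 0.63. Scd1, the other desaturase, was at 1.18 CPM or lower in the 18 tumour and lymph node libraries and at 0 in most of them.

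Cell markers were read beside these changes. The 15 proliferation genes had a summed median of 3280 CPM in the 9 tumour Treg libraries and 3367 CPM in the 9 lymph node libraries. Their median change was -0.20 in IL10, -0.13 in Ebi3 and 0.98 in DN Tregs, where 7 of them rose, or 46.7% beside 23.4% of all genes called. The 11 macrophage genes summed to 5.22 to 20.4 CPM in tumour Tregs and to 1.93 to 207 CPM in lymph node Tregs, with Csf1r at 0.303 CPM or lower in tumour libraries. Dendritic cell genes summed to 20.8 to 45.7 CPM in tumour and 1.79 to 15.5 CPM in lymph node Tregs. The part of these cells in the results was not tested. Without the ndLN Ebi3 library that held macrophage RNA, 2 calls in Ebi3 Tregs were lost, Hsd17b7 (adjusted p = 0.0567) and Mvd (0.0623), and the other 16 held.

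Some calls were lost when a batch, which holds 1 library of each group, was left out. Leaving out each batch in turn gave 12 to 15 calls in IL10, 15 or 16 in Ebi3 and 16 or 17 in DN Tregs. In IL10 Tregs, Hsd17b7, Mvk, Nsdhl, Pmvk, Sc5d, Srebf2 and Stard4 lost their call in at least 1 of these fits, with adjusted p of 0.234 or lower. In Ebi3 Tregs the genes were Hsd17b7, Idi1, Mvd, Nsdhl and Stard4, at 0.182 or lower, and in DN Tregs Hsd17b7, Sc5d and Srebf2, at 0.170 or lower. Srebf2 in DN Tregs lost its call whichever batch was left out, as did Hsd17b7 in Ebi3 and Nsdhl in IL10 Tregs. In the 27 cases of a lost call, the change was 0.71 to 1.25 times that with all batches. Abca1, Abcg1, Mylip, Hmgcs1, Sqle, Cyp51, Fdps, Fdft1, Sc4mol and Insig1 held in every such fit in each subset.

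Whether the tumour change differed between subsets was tested directly. The difference of IL10 minus DN Tregs was called for 0 of 34 members with edgeR, 6 at an unadjusted p under 0.05 and 2 with DESeq2, where 4.49% of all genes were called. Sqle came closest, with a change larger by 1.57 ± 0.47 in IL10 Tregs (edgeR, adjusted p = 0.0549). The difference of Ebi3 minus DN Tregs was called for 0 of 34 members with edgeR, 4 at an unadjusted p under 0.05 and 0 with DESeq2, where 1.61% of all genes were called.

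Within tumours, no member passed between subsets with edgeR. IL10 against DN Tregs gave 0 calls with edgeR and with DESeq2, 7 members at an unadjusted p under 0.05, and 0.837% of all genes called. Ebi3 against DN Tregs gave 0 calls with both tools, 3 members at an unadjusted p under 0.05, and 0.713% of genes called. IL10 against Ebi3 Tregs gave 0 calls with edgeR and 1 with DESeq2, 4 members at an unadjusted p under 0.05, and 2.84% of genes called. Fasn had the smallest p in the first and last of these, with changes of -0.66 ± 0.20 against DN (adjusted p = 0.174) and -0.64 ± 0.20 against Ebi3 Tregs (0.0905).

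In lymph nodes and naive mice a few members differed between subsets, in both directions and at shares near or below those of all genes. In lymph node IL10 Tregs, 4 members rose and 1 fell against lymph node DN Tregs, where 16.2% of all genes were called. Pmvk was at 34.9, 29.0 and 32.0 CPM in IL10 and 14.0, 21.3 and 22.3 in DN Tregs, a change of 0.76 ± 0.18. Nsdhl, Ebp and Acly also rose, by 0.71, 0.51 and 0.55. Sqle fell by 1.26 ± 0.34, although its IL10 and DN libraries overlapped, as did those of Acly. In lymph node Ebi3 Tregs, 3 members rose and 3 fell against lymph node DN Tregs, where 13% of all genes were called.

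Scd2 rose in lymph node Ebi3 Tregs by 0.80 ± 0.24 and in naive Ebi3 Tregs, with 129, 124 and 161 CPM against 69.0, 70.7 and 90.5 in naive DN Tregs, by 0.77 ± 0.24. Srebf2 fell by 0.83 ± 0.20 in lymph node and by 0.81 ± 0.20 in naive Ebi3 Tregs, where it had 52.7, 79.0 and 59.2 CPM, against 86.5, 153 and 84.9 in naive DN Tregs. In lymph node Ebi3 Tregs Stard4 rose by 0.95 ± 0.31 and Pmvk by 0.65 ± 0.18, and Abcg1 fell by 0.49 ± 0.15 and Mylip by 1.06 ± 0.36. The lymph node libraries overlapped for Srebf2 and Stard4 and not for the others. Naive Ebi3 Tregs had 1 member higher and 2 lower than naive DN Tregs, with 12.8% of all genes called, and Fdps was the other that fell, by 0.64 ± 0.21. Naive IL10 Tregs had 2 members higher, Cyp51 by 0.72 ± 0.22 and Ebp by 0.70 ± 0.13, with 17.8% of genes called. These small counts depended on the batch term. Without it they were 2 and 0 in the lymph node IL10 and Ebi3 contrasts and 0 and 1 in the naive Ebi3 and IL10 contrasts. They also depended on single replicates, apart from the naive IL10 count, which stayed at 2 with any batch left out. In that contrast Ebp held in 3 of 3 such fits and Cyp51 in 1. Of the 15 proliferation genes, 9 rose in lymph node IL10 and 14 in lymph node Ebi3 Tregs against DN Tregs.

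No member passed between lymph node and naive Tregs. The calls were 0 with edgeR and with DESeq2 in each of the IL10, Ebi3 and DN subsets, with 1, 2 and 1 members at an unadjusted p under 0.05 and 0.0542%, 0.00775% and 0.0852% of all genes called. Abca1 in naive DN Tregs had 22.0, 18.1 and 41.1 CPM and Abcg1 had 546, 658 and 752, which overlapped the lymph node DN libraries. Against naive Teff, naive DN Tregs had 2 members higher, where 12.2% of genes were called. These were Ebp, by 0.71 ± 0.13, and Mvd, by 0.74 ± 0.24. Teff had 24.6, 17.9 and 27.4 CPM of Abca1 and 47.8, 76.5 and 37.0 CPM of Hmgcs1, and 1 of these Hmgcs1 values lay above all naive Treg libraries.

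In tumour CD8 cells the members were described along the order NDLN, NEG, INT, SP and DP, in the libraries of DKO, Ebi3L and Il10 hosts together, 9 a population and called knockout-host libraries here, and separately in the yfp libraries, 3 a population. Scd1 was not tested in either set because it was near 0, which left 33 members. In DP against NEG cells, 20 members rose and 5 fell in knockout-host libraries, where 56.4% of all genes were called, 28.7% higher and 27.8% lower. In yfp libraries 14 rose and 3 fell, where 33.2% of all genes were called, 17.2% higher and 16% lower. With the replicate as a block, 18 rose and 3 fell in yfp libraries, where 35.4% of all genes were called. Without the block, the calls shared by both sets were 13 higher and 3 lower, and the share of all genes so called was not computed. The yfp and knockout-host libraries are separate, but the labels put each yfp replicate under a set name that knockout-host libraries also carry. The median change over members was 0.87 in knockout-host and 0.90 in yfp libraries, beside 0.00 and 0.02 over all genes.

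**Figure D3:**
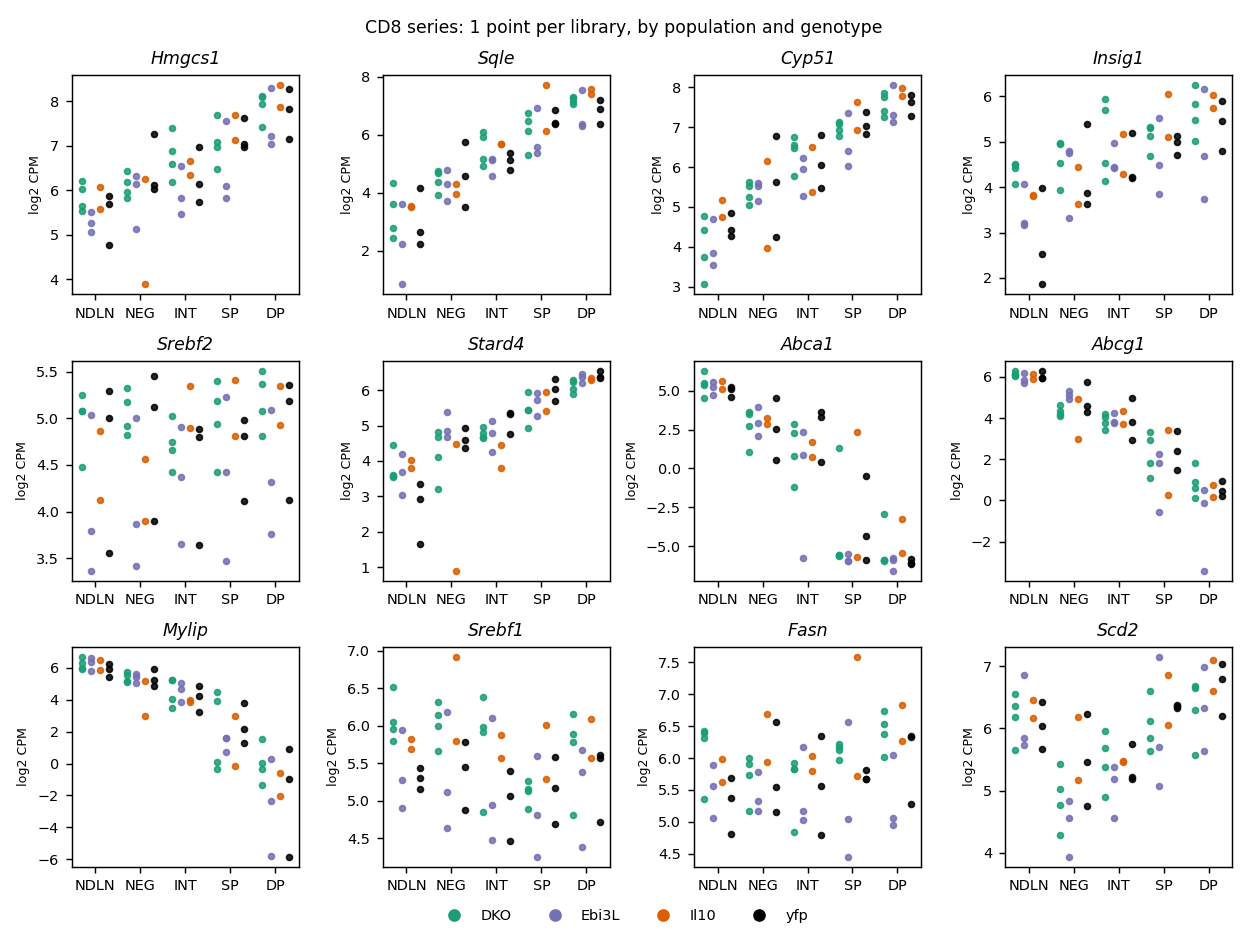
Levels of the same 12 members in the CD8 series, 1 point per library as log2 CPM with a prior of 0.5 counts, by population and coloured by host genotype. Hmgcs1, Sqle, Cyp51 and Stard4 lie mostly higher in DP than in NEG cells, and Abca1, Abcg1 and Mylip lie lower in every DP library than in any NDLN library.

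Of the early enzymes, 6 of 7 rose in knockout-host DP cells and 5 of 7 in yfp DP cells, with median changes of 1.64 and 1.26. Hmgcs1 had a lowest, median and highest level of 131, 245 and 334 CPM in the 9 knockout-host DP libraries and 14.8, 71.0 and 86.1 in the 9 NEG libraries. It had 311, 228 and 144 CPM in yfp DP and 155, 65.2 and 69.3 in yfp NEG cells. The groups did not overlap in knockout-host libraries and overlapped in yfp libraries, where NEG replicate 1 lay above DP replicate 3. Hmgcs1 rose by 1.91 ± 0.21 (edgeR, adjusted p = 3.47e-10) and 1.26 ± 0.34 (0.0114).

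Idi1 had 22.5, 42.1 and 48.3 CPM as lowest, median and highest in knockout-host DP and 4.26, 8.83 and 12.2 in NEG cells, with 39.8, 35.3 and 25.7 in yfp DP and 17.5, 1.04 and 4.96 in yfp NEG cells. The groups did not overlap in either set, and it rose by 2.20 ± 0.25 and 2.17 ± 0.65. Pmvk rose by 1.72 ± 0.15 and 1.92 ± 0.23, Fdps by 1.64 ± 0.18 and 1.42 ± 0.41, and Acat2 by 0.70 ± 0.16 and 0.90 ± 0.30. Mvk rose in knockout-host cells, by 1.16 ± 0.32, and stood at 0.68 ± 0.42 in yfp cells. Mvd stood at -0.01 ± 0.18 and 0.30 ± 0.35 and passed in neither.

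Of the late enzymes, 10 of 11 rose in knockout-host and 6 of 11 in yfp DP cells, with median changes of 1.41 and 1.34. Sqle had 79.3, 154 and 192 CPM as lowest, median and highest in knockout-host DP and 13.0, 19.6 and 27.2 in NEG cells, with 145, 117 and 82.8 in yfp DP and 53.7, 11.4 and 23.6 in yfp NEG cells. No DP library overlapped its NEG group, and Sqle rose by 2.73 ± 0.28 (edgeR, adjusted p = 7.57e-11) and 1.99 ± 0.51 (0.0102). Cyp51 had 139, 216 and 269 CPM in knockout-host DP and 15.5, 45.7 and 70.7 in NEG cells, with 224, 197 and 155 in yfp DP and 109, 18.9 and 49.7 in yfp NEG cells, again without overlap. It rose by 2.22 ± 0.22 and 1.74 ± 0.50.

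Sc4mol rose by 1.58 ± 0.17 and 1.34 ± 0.27 in knockout-host and yfp libraries, Sc5d by 1.23 ± 0.13 and 1.10 ± 0.30, and Ebp by 0.87 ± 0.10 and 0.88 ± 0.14. Fdft1 rose by 1.79 ± 0.18 and 2.00 ± 0.28, beside 1.22 ± 0.09 and 1.24 ± 0.14 for Ctsb, the gene that overlaps it. Lss, Nsdhl, Hsd17b7 and Dhcr7 rose in knockout-host libraries, by 1.41, 0.96, 1.79 and 0.73. In yfp libraries they stood at 1.37, 0.98, 1.43 and 0.92 without passing. With the replicate as a block, Lss, Nsdhl and Dhcr7 were called higher in yfp libraries. Tm7sf2 passed in neither.

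Of the SREBP regulators, Insig1 rose in knockout-host and Insig2 in yfp DP cells, and Srebf1, Srebf2 and Scap passed in neither set. Insig1 had 13.2, 54.0 and 76.7 CPM as lowest, median and highest in knockout-host DP and 9.99, 23.0 and 31.2 in NEG cells, and rose by 1.06 ± 0.23 although the groups overlapped. In yfp cells it had 59.4, 43.7 and 27.6 CPM in DP and 42.1, 12.4 and 14.6 in NEG cells, and its change of 0.97 ± 0.46 did not pass. With the replicate as a block, Insig1 was called higher in yfp DP cells. Srebf2 had 36.3, 40.9 and 17.4 CPM in yfp DP and 34.7, 43.8 and 14.9 in yfp NEG cells, and stood at 0.36 ± 0.18 and 0.09 ± 0.22. Srebf1 had 47.3, 48.9 and 26.2 CPM in yfp DP and 55.0, 43.8 and 29.3 in yfp NEG cells, with changes of -0.31 ± 0.19 and -0.04 ± 0.20. Insig2 rose in yfp cells by 0.87 ± 0.28 and stood at 0.26 ± 0.13 in knockout-host cells. Scap stood at 0.08 and -0.13.

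Abca1 had 35.0, 37.2 and 23.8 CPM in yfp NDLN, 5.84, 23.1 and 1.43 in NEG, 9.66, 12.3 and 1.32 in INT, 0, 0.693 and 0.0325 in SP and 0, 0 and 0 in DP cells. Its lowest, median and highest levels in knockout-host cells were 23.1, 41.1 and 78.0 CPM in NDLN, 2.09, 7.43 and 15.5 in NEG, 0, 1.82 and 7.22 in INT, 0, 0 and 5.10 in SP and 0, 0 and 0.110 in DP. Every NDLN library lay above every tumour library of its set, and every DP library below every NEG library. The knockout-host SP value of 5.10 came from 1 Il10 library, and over all genotypes 8 of 12 SP and 10 of 12 DP libraries were at 0. Against yfp NEG cells, yfp DP cells were at least 109.7-fold lower, with the 3 DP libraries at the level of 3 counts (edgeR, adjusted p = 5.35e-04), and at least 39.4-fold lower without NEG replicate 2. In knockout-host DP cells 7 of 9 libraries were at 0 and the others held 3 counts each. With every DP library put at the level of 3 counts, they lay 83.5-fold below knockout-host NEG cells, and the fitted change of -8.44 ± 1.22 (edgeR, adjusted p = 1.79e-07) depends on the prior count.

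Abcg1 had 60.9, 62.1 and 77.7 CPM in yfp NDLN, 23.9, 54.1 and 19.3 in NEG, 14.1, 31.1 and 7.64 in INT, 5.32, 10.4 and 2.799 in SP and 1.38, 1.89 and 1.14 in DP cells. The DP libraries did not overlap the NEG or SP libraries, and the NEG and INT ranges overlapped. DP against NEG, it fell by 4.22 ± 0.43 in knockout-host and by 4.39 ± 0.52 in yfp libraries. Mylip had 75.2, 60.2 and 42.4 CPM in yfp NDLN, 37.1, 59.9 and 28.7 in NEG, 18.5, 29.6 and 9.26 in INT, 4.40, 13.9 and 2.38 in SP and 0.499, 0 and 1.87 in DP cells, and fell by 5.60 ± 0.58 in knockout-host and by 5.46 ± 1.11 in yfp libraries. Mylip was 0 to 2.91 CPM in all 12 DP libraries and did not overlap NEG in either set.

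The LXR genes fell in knockout-host DP cells. Nr1h3 had 0, 0 and 0.269 CPM as lowest, median and highest in DP and 0, 0.213 and 5.48 in NEG cells, with overlap, and was called lower with a fitted change of -5.05 ± 1.47 that depends on the prior count. Nr1h2 had 26.6, 61.4 and 84.4 CPM in DP and 49.5, 88.7 and 109 in NEG cells, also with overlap, and fell by 0.43 ± 0.13. In yfp cells they stood at -3.77 ± 2.40 and -0.29 ± 0.17 and did not pass. Stard4 rose by 1.83 ± 0.26 in knockout-host DP cells and, with 81.9, 82.6 and 93.7 CPM in yfp DP and 30.7, 20.8 and 23.96 in yfp NEG cells, by 1.81 ± 0.33.

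Of 4 fatty acid synthesis genes tested, Scd2 and Acly rose in knockout-host DP cells and Scd2 in yfp DP cells. Scd2 had 47.7, 96.7 and 137 CPM as lowest, median and highest in knockout-host DP and 15.3, 28.6 and 72.7 in NEG cells, with 132, 111 and 73.8 in yfp DP and 75, 44.2 and 27.0 in yfp NEG cells. The groups overlapped in both sets, and its changes were 1.48 ± 0.20 and 1.18 ± 0.24. Acly rose by 0.33 ± 0.11 in knockout-host cells and stood at 0.12 ± 0.15 in yfp cells. Fasn had 80.5, 81.1 and 38.9 CPM in yfp DP and 94.7, 35.7 and 46.8 in yfp NEG cells, and stood at 0.36 ± 0.19 and 0.17 ± 0.33. Acaca stood at 0.19 and 0.21.

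**Figure D4:**
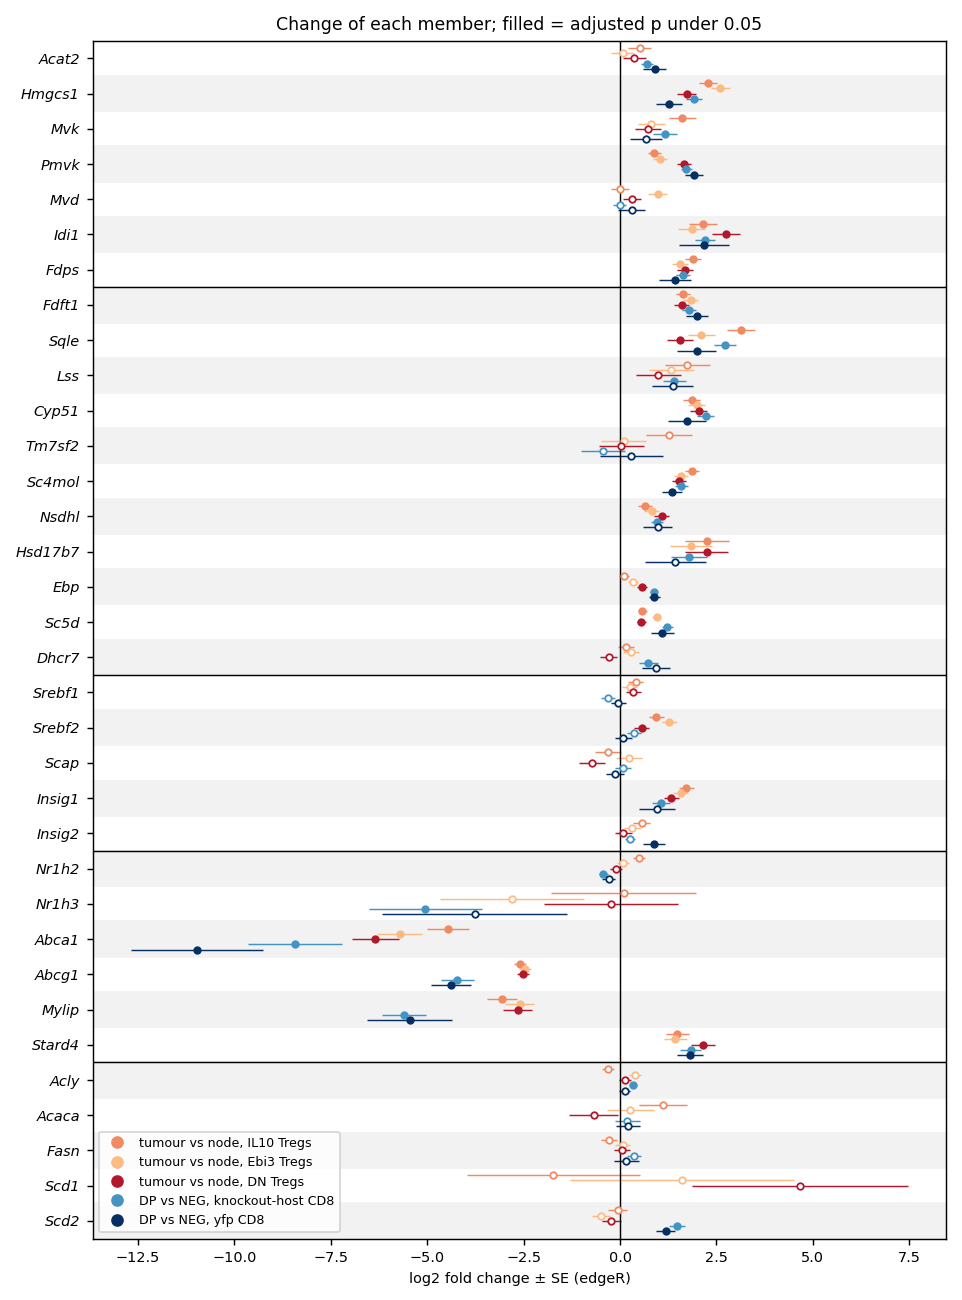
Log2 fold change ± SE (edgeR) of every member in 5 comparisons, tumour against lymph node in IL10, Ebi3 and DN Tregs and DP against NEG in knockout-host and yfp CD8 cells, with filled points where the adjusted p was under 0.05. The 10 members higher in all 5 comparisons lie right of 0 and Abca1, Abcg1 and Mylip left of it. Both Abca1 points of CD8 cells and the knockout-host Nr1h3 point depend on the prior count because most of the DP libraries held 0 counts.

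Some yfp calls were lost when a replicate was left out. Without replicate 3 of each yfp population, 9 members passed, 6 higher and 3 lower, and Hmgcs1 (edgeR, adjusted p = 0.0917), Sqle (0.0793), Cyp51, Idi1, Fdps, Acat2, Sc5d and Insig2 lost their call. Without replicate 1 the count was 18 and Mylip lost its call (0.101), and without replicate 2 it was 19 and Insig2 lost its call. Without the NEG library of replicate 2 alone, 13 passed, 10 higher and 3 lower, and Acat2 (edgeR, adjusted p = 0.137), Fdps, Hmgcs1 and Sc5d lost their call. The 8 members that held in all of these fits were Abca1, Abcg1, Ebp, Fdft1, Pmvk, Sc4mol, Scd2 and Stard4. In knockout-host libraries 25 to 27 members passed with any 1 source left out, and all 25 calls held.

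Across the 3 Treg comparisons and both DP comparisons, 10 members rose in all 5: Hmgcs1, Pmvk, Idi1, Fdps, Fdft1, Sqle, Cyp51, Sc4mol, Sc5d and Stard4. Abca1, Abcg1 and Mylip fell in all 5. The share of all genes called in all 5 was not computed. With batches, replicates or sources left out in turn, Sc4mol, Fdft1, Abca1 and Abcg1 held in every fit of all 5. The value of Fdft1 is uncertain because of Ctsb. The other members that rose or fell in all 5 lost a call in some of these fits. Fasn, Acaca, Srebf1, Scap and Tm7sf2 passed in 0 of the 5. Srebf2 rose in the 3 Treg comparisons and in neither CD8 set.

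Single steps between neighbouring populations were called mostly in the larger knockout-host set. NEG against NDLN gave 6 members higher and 2 lower in knockout-host libraries, where 11.9% of all genes were called, and 1 higher in yfp libraries, where 1.56% were called. With the replicate as a block the yfp count was 4, all higher (Stard4, Fdps, Hmgcs1 and Insig1). The member called without it was Stard4, with 30.7, 20.8 and 23.96 CPM in NEG and 7.56, 10.18 and 3.13 in NDLN cells, which rose by 1.94 ± 0.34. In knockout-host libraries Idi1, Fdps, Fdft1, Sqle, Cyp51 and Sc5d rose, by 0.49 to 1.29. Abcg1 fell by 1.29 ± 0.37 at this step and Scd2 by 1.16 ± 0.20, with 15.3, 28.6 and 72.7 CPM as lowest, median and highest in NEG and 50.4, 72.6 and 116 in NDLN cells. The yfp count was 10 without NEG and NDLN replicate 2, whose NEG library had 23.1 CPM of Abca1 and 11.4 CPM of Sqle, and 0 without replicate 1 or replicate 3. It was 7 without that NEG library alone.

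INT against NEG gave 4 members higher in knockout-host libraries, where 8.73% of all genes were called. These were Sqle, Cyp51, Nsdhl and Sc5d, whose groups overlapped, and the count was 1 to 3 when any 1 source was left out. It was 1, Sqle, without NEG Il10 replicate 1 alone. In yfp libraries the count was 0 with edgeR, 4 at an unadjusted p under 0.05 and 1 with DESeq2, with 0.938% of genes called, and 1 with the replicate as a block, Insig2, which was higher. SP against INT gave 8 higher and 2 lower in knockout-host libraries, where 20.4% of genes were called, and 3 higher and 1 lower in yfp libraries, where 4.89% were called. With the replicate as a block the yfp count was 7, with Fdft1 and Hmgcs1 also higher and Abcg1 also lower. Pmvk, Sc4mol and Scd2 rose in both sets at this step. The yfp count was 0 without replicate 1 or replicate 3 and 3 without replicate 2, and the knockout-host call of Sc4mol was lost without 7 of the 9 sources. In yfp cells Abca1 fell by 4.94 ± 1.09, and in knockout-host cells Abcg1 fell by 1.76 ± 0.38 and Mylip by 2.19 ± 0.50.

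DP against SP gave 13 higher and 3 lower in knockout-host libraries, where 18.8% of all genes were called. Abcg1 fell by 1.64 ± 0.39 and Mylip by 2.67 ± 0.53, and Abca1 was called lower with a fitted change of -4.58 ± 1.18 that depends on the prior count. Fdps rose by 1.05 ± 0.18, Lss by 0.96 ± 0.29 and Hmgcs1 by 0.89 ± 0.21, all with overlap. Calls of Abca1, Idi1, Lss, Sqle and Stard4 at this step were lost without at least 1 source, among them Abca1 without Il10 replicate 1 (adjusted p = 0.0711) or DKO replicate 4 (0.0521). Without the SP library of DKO replicate 4 alone, 11 members were higher and 2 lower. The yfp count was 0 with edgeR, 3 at an unadjusted p under 0.05 and 2 with DESeq2, with 1.21% of genes called, and 1 with the replicate as a block, Abcg1, which was lower. Sqle and Cyp51 were the members called higher at each of the 4 steps in knockout-host cells. Sqle rose by 1.29 ± 0.28, 0.98 ± 0.27, 0.92 ± 0.27 and 0.83 ± 0.27 along the order, with medians of 11.4, 19.6, 36.0, 70.0 and 154 CPM from NDLN to DP, though neighbouring ranges overlapped. Cyp51 rose by 1.19, 0.70, 0.74 and 0.77. With each of the 9 sources left out in turn, the INT against NEG call held in 4 fits for Cyp51 (edgeR, adjusted p of 0.0905 or lower) and in 8 for Sqle, and Sqle held in 7 fits for SP against INT and in 6 for DP against SP.

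Proliferation genes moved with these populations. Their summed median was 1003 CPM in NDLN, 1372 in NEG, 2533 in INT, 4840 in SP and 7595 in DP cells, and DP against NEG 15 of 15 rose in knockout-host and 11 of 15 in yfp libraries. Macrophage genes summed to 10.7 to 42.9 CPM in DP and 4.73 to 29.4 CPM in NEG cells. Their part in the results was not tested.

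Host genotype was compared within each CD8 population. Over the 5 populations, 0 of 165 member tests were called for DKO, 0 of 165 for Ebi3L and 0 of 165 for Il10 against yfp with edgeR, and 0 with DESeq2. At an unadjusted p under 0.05 there were 11, 4 and 7, and 0.00156%, 0.00156% and 0.00313% of all gene tests were called, with at most 1 gene in a population (0.00811% in NDLN cells for Il10). The change from NEG to DP also differed between genotypes for 0 of 34 members in each case with edgeR and with DESeq2, with 1, 0 and 2 at an unadjusted p under 0.05 for DKO, Ebi3L and Il10 and 0% of all genes called. Without Il10 replicate 2, 4 members were called for Il10 hosts over the 5 populations, all in NEG cells and all lower (Hmgcs1, Hsd17b7, Mylip and Stard4), and 4 in its NEG to DP difference, all higher. The single NEG library then left was Il10 replicate 1, the one with few genes detected, which had 14.8 CPM of Hmgcs1 and 1.85 of Stard4, against 76.9 and 22.3 CPM in replicate 2. A single library was assumed to vary like the other groups, and without Il10 replicate 1 instead both counts were 0.

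**Figure D5:**
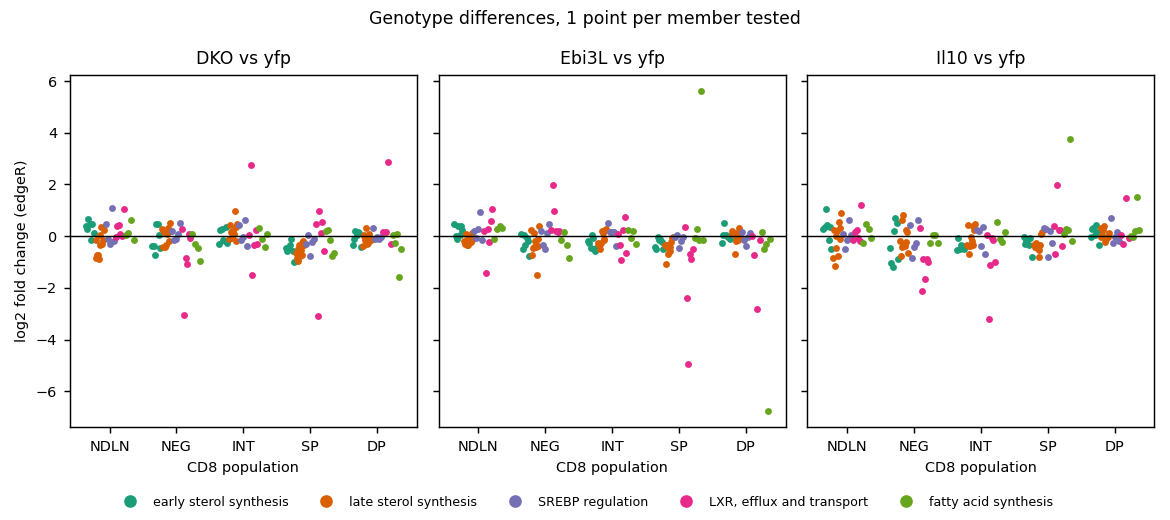
Log2 fold changes (edgeR) of each member tested in DKO, Ebi3L and Il10 hosts against yfp hosts, by CD8 population and coloured by role, 1 point per member. No point passed the adjusted threshold, and the sterol synthesis points of SP cells lie mostly below 0 for each genotype. Those points share the same 3 yfp libraries and come from fits with a batch term.

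SP cells were singled out after their values were seen. A change above 0 was found for 7 of 34 members in DKO, 4 of 34 in Ebi3L and 13 of 34 in Il10 hosts, and all 3 comparisons share the same 3 yfp SP libraries. The share of all genes above 0 was not computed, and members may move together, so these counts were not tested. In each of these SP comparisons 0% of all genes were called. The early and late sterol enzymes had medians of -0.47 and -0.53 in DKO, -0.23 and -0.39 in Ebi3L and -0.20 and -0.34 in Il10 hosts. A fitted change above 0 was found for 0 of 7 early enzymes in any genotype and 0, 0 and 2 of 11 late enzymes. These fits hold a batch term, and Il10 replicate 1 is in a batch without yfp libraries. In CPM without that term, Il10 SP means lay above yfp SP means for some of these enzymes and below for others. Sqle had 141 in Il10 and 93.9 in yfp, and Fdps 95.9 and 130. In DKO hosts Fdps, Sqle, Sc4mol, Nsdhl and Scap had an unadjusted p under 0.05, with changes of -0.996 ± 0.33, -0.85 ± 0.38, -0.76 ± 0.26, -0.53 ± 0.21 and -0.78 ± 0.26, and none passed (edgeR, adjusted p of 0.543 or higher). Sqle had 108, 87.9, 69.4 and 39.1 CPM in the DKO SP libraries, against 115, 83.7 and 83.3 in yfp SP libraries, and the groups overlapped. The lowest of these was the library with macrophage RNA, which was also the single DKO SP library with Abca1, at 2.49 CPM.

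Neighbouring pathways were read from lists for comparison. In tumour against lymph node Tregs the list of fatty acid elongation, activation and lipid assembly had 4, 6 and 4 of 17 genes higher and 0, 0 and 1 lower in IL10, Ebi3 and DN Tregs, which is 23.5%, 35.3% and 29.4% of the list called beside 9.32%, 10.3% and 23.4% of all genes. Dgat1, which makes triglycerides, rose by 3.18 ± 0.24, 3.52 ± 0.25 and 3.74 ± 0.25, with 387 ± 63.9 CPM in DN Tregs of tumours and 31.0 ± 8.26 in those of lymph nodes (SD, n = 3 each). Acsl4, an acyl-CoA synthetase, rose by 1.03 ± 0.17 in Ebi3 and 1.21 ± 0.17 in DN Tregs. Acss2, which makes acetyl-CoA from acetate, fell by 1.36 ± 0.28 in DN Tregs. Fatty acid oxidation and uptake had 1, 1 and 3 of 18 genes higher and 0, 0 and 2 lower, or 5.56%, 5.56% and 27.8% called, near or below the shares of all genes, among them Acadl, a long-chain dehydrogenase, at 0.51 ± 0.16, 0.70 ± 0.16 and 0.92 ± 0.16.

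Among 12 genes of cholesterol handling, 3, 1 and 2 rose in IL10, Ebi3 and DN tumour Tregs with no call in the other direction, or 25%, 8.33% and 16.7% called. Npc2, the lysosomal cholesterol carrier, rose by 0.94 ± 0.09, 1.26 ± 0.09 and 0.47 ± 0.09 in Tregs and fell in DP against NEG cells by 1.19 ± 0.10 and 0.91 ± 0.16 in knockout-host and yfp libraries. Of 10 isoprenoid branch genes, the 1 called was Fntb, the farnesyltransferase beta subunit, which fell in Ebi3 and DN Tregs, by 1.04 ± 0.31 and 1.62 ± 0.31. Of 9 SREBP processing genes, Pgrmc1, a sterol-binding membrane protein, rose in IL10 and DN Tregs, by 0.39 ± 0.12 and 0.44 ± 0.12. In IL10, Ebi3 and DN Tregs 0%, 10% and 10% of isoprenoid genes and 11.1%, 0% and 11.1% of SREBP processing genes were called. These shares are near or below the 9.32%, 10.3% and 23.4% of all genes.

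In DP against NEG cells fatty acid oxidation had 9 higher and 4 lower of 18 genes in knockout-host libraries and 7 and 3 in yfp libraries, or 72.2% and 55.6% called beside 56.4% and 33.2% of all genes. Acadl rose by 1.33 ± 0.11 and 1.29 ± 0.15, and Etfb, an electron carrier subunit, by 1.69 ± 0.09 and 1.71 ± 0.19. The elongation and assembly list had 4 higher and 4 lower of 17 in knockout-host libraries and 2 and 4 in yfp libraries, or 47.1% and 35.3% called. Acss2 fell by 3.66 ± 0.42 and by 2.76 ± 0.41, and Elovl6, a fatty acid elongase, by 1.96 ± 0.25 and 2.13 ± 0.44. Elovl6 rose in tumour IL10 Tregs, by 2.09 ± 0.37. Isoprenoid genes had 5 higher and 2 lower of 10 in knockout-host libraries and 2 and 2 in yfp libraries, SREBP processing genes 1 and 2 of 9 in both sets, and cholesterol handling genes 3 and 2 of 11 and 1 and 4 of 12. These are 70% and 40%, 33.3% and 33.3%, and 45.5% and 41.7% of the lists called, in part below the shares of all genes.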

How the data were processed

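Reads were aligned to mm10 with STAR and assigned to genes with featureCounts of Subread, per the submitters' processing notes, and the deposited counts are raw whole-number counts per gene and library. The sources used here give neither the strand setting nor the gene annotation. Counts were fitted with edgeR 4.0.16 and limma 3.58.1 in R 4.3.3 (TMM scaling, filterByExpr on group, robust quasi-likelihood tests), with Benjamini-Hochberg adjustment over all genes tested and a threshold of 0.05, and checked with DESeq2 1.42.0 and on simulated counts with 200 genes changed. The SE is the absolute log2 fold change divided by the square root of F.

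The Treg series was fitted over its 30 libraries with the batch that the labels give as replicate number, since samples of a number share a batch. The yfp and knockout-host CD8 populations were fitted separately, with batch, and with genotype and batch, as terms. Genotypes were compared within a population over 12 libraries with a batch term, and the NEG to DP differences over 24 libraries with the source as a block. Deviations from group means correlated with a median of 0.0663 within Treg batches and -0.0534 between them. Same-numbered CD8 libraries of a genotype carry the same set name in the labels, which do not say what a set is. Their deviations correlated with a median of 0.149 in yfp and 0.0744 in knockout hosts. The count with the replicate as a block is therefore given where it moved by more than 1.5 times, and for DP against NEG cells. Each yfp replicate also shares its set name with libraries of a knockout genotype, and the genotype comparisons within a population did not use the set. Of 95 replicate pairs compared, 0 agreed within sampling noise. Groups came from the labels, and no library was left out of the fits reported.

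Members and gene lists were chosen with earlier results of these data known. Values in every library are given for Srebf1, Srebf2, Insig1, Abca1, Abcg1, Sqle, Hmgcs1, Fasn and Scd2 and for up to 4 called members with the largest changes in each direction of a family of comparisons. Alternatives left out each replicate, used other scalings, no filter, DESeq2 or another block. Intervals and the level of 3 counts cover counting error only. Promoter windows were read from RefSeq tables and gene positions from GENCODE on GRCm38.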

Additional observations from a re-analysis of the deposited data

Results flagged for a closer look

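Of 164 sets of 4 DKO libraries tested for a single library far from the rest, 9 were singled out, each by a gap to its nearest neighbour above Dixon's 95% critical value over the range of the 4. Chance alone marks about 1 in 20 such sets. No difference in the NEG to DP change between genotypes, or in the tumour change between Treg subsets, passed its test.

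In SP cells, Abca1 was at 2.49 CPM in DKO replicate 4 and at 0 in the other DKO libraries, and the same library held 94.2 CPM of macrophage genes. Scd1 was at 0.465 CPM in SP DKO replicate 2, against 0 to 0.0420 CPM in the others. Nr1h3 was at 1.92 CPM in INT DKO replicate 1 (others 0 to 0.0422 CPM) and at 1.32 CPM in NEG DKO replicate 3 (others 0.170 to 0.213 CPM).

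Fasn was low in NDLN DKO replicate 1, at 41.2 CPM against 79.2 to 85.6 CPM in the others, where Stard4 was high, at 21.8 CPM against 11.7 to 12.1 CPM. Fasn was also low in INT DKO replicate 4, at 28.6 CPM against 56.6 to 60.7 CPM. Mvd was at 25.2 CPM in INT DKO replicate 2, against 37.0 to 37.9 CPM. Tm7sf2 was at 9.98 CPM in DP DKO replicate 4, against 3.69 to 4.49 CPM. The causes of these values were not tested.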

How the results depend on the processing

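No member called in a main fit changed direction under any alternative run. Direction was not checked for members that were not called, which includes every member in the genotype comparisons. The counts of members called between tumour and lymph node Tregs stayed within 1.5 times, at 12 to 17 with a batch left out and 14, 17 and 17 without the replicate block in IL10, Ebi3 and DN Tregs, as did the knockout-host DP against NEG count (25 to 27 with a source left out, 25 with a replicate block). In the smaller contrasts, taking the replicate block out gave 0 members for Ebi3 against DN in naive mice and 0 in lymph nodes, 1 for naive IL10 against DN, 2 for lymph node IL10 against DN and 1 for naive DN against Teff, where library totals only and no filter also gave 1. Without the ndLN Ebi3 library that held macrophage RNA, an alternative chosen after seeing the data, lymph node Ebi3 against DN gave 2 and lymph node IL10 against DN 5. DESeq2 gave 2 for the IL10 minus DN difference and 1 for tumour IL10 against Ebi3.

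The replicate block, and DESeq2, moved the yfp counts to 4 and 6 (NEG against NDLN), 1 and 1 (INT against NEG, also 1 with no filter), 7 and 7 (SP against INT) and 1 and 2 (DP against SP). The DKO count was 2 with no filter. Leaving out single CD8 libraries, also chosen after seeing the data, gave 13, 7 and 7 for yfp DP against NEG, NEG against NDLN and SP against INT without NEG yfp replicate 2, and 1 for knockout-host INT against NEG without NEG Il10 replicate 1. With a replicate left out, the counts were 9 to 19 for yfp DP against NEG, 0 to 10 for NEG against NDLN and 0 to 3 for SP against INT, 1 to 3 for knockout-host INT against NEG, 1 to 3 for both lymph node contrasts with DN, 0 to 1 for naive Ebi3, 1 for naive DN against Teff, and 0 to 4 for Il10 and for its NEG to DP difference. The causes were not tested. In the shallowest libraries, a level under 0.308 CPM in the Treg series or 0.156 CPM in the CD8 series could not be told from 0. Precision is limited by 2 to 4 libraries a group.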
